A study of Homo sapiens with 15 samples.

Results

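The genes described here encode the ligands, receptors, SMAD proteins and extracellular regulators of the TGF-beta, activin and BMP pathways. They were chosen by gene symbol from a list of 51 names, and 49 of them were measured among 17687 genes. TGFB2 and BMPR1A were not analysed here. By role there were 18 ligands, 11 receptors, 10 SMADs and SMAD co-repressors, and 10 antagonists and binding proteins. Gene expression was measured on 15 single-colour arrays, 5 in each of 3 groups of ASC52 cells, a human line of mesenchymal stem cells from fat tissue immortalised with telomerase (hTERT). The DED group (dedifferentiated adipocytes) was kept for 14 days in adipogenic medium, begun 3 days after seeding, and then for 7 days in conditioned medium of MDA-MB-231 cells, which derive from a human breast cancer. The MA group (mature adipocytes) had the same differentiation and then 7 days in the control medium (RPMI, 10% FBS, which is fetal bovine serum). The MSC group was left undifferentiated, and its medium after seeding and its time of harvest are not stated in the labels, so differentiation cannot be told apart from medium and culture time. The conditioned medium was likewise made in RPMI with 10% serum, no medium conditioned by a non-tumour cell was among the groups, and all 3 groups come from 1 cell line. Whether the 5 arrays of a group stand for separate cultures is not in the labels, so the spread behind the p-values may be technical. Each gene had 1 estimate of its spread, shared by all 15 arrays. The arrays of a group outside a comparison therefore also affect its p-values.

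Ligands of this superfamily are secreted dimers, and TGF-beta itself is held in the matrix in a latent complex with LTBP proteins until it is released. A ligand joins type II and type I receptor kinases. The type I receptor phosphorylates SMAD2 and SMAD3 (TGF-beta, activin, myostatin) or SMAD1, SMAD5 and SMAD9 (BMPs, some GDFs). The phosphorylated SMADs enter the nucleus with SMAD4. SMAD6 and SMAD7 block the receptors, SKI and SKIL repress SMAD target genes, and secreted proteins such as gremlin, noggin and follistatin bind ligands outside the cell. In fat tissue TGF-beta and activin are known to restrain the formation of adipocytes, while several BMPs favour the commitment of progenitors to it.

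All values are log2 intensities as the authors deposited them, and differences are log2 differences from limma with p-values adjusted by Benjamini-Hochberg over the 17687 genes, where an adjusted p under 0.05 passed the test. A probe set's intensity depends on its own probes, so levels are compared between groups and not between genes. As marks of background, the arrays' negative control probe sets give 4.80 (their median) and 8.31 (their 95th percentile), and 25 of the 49 members, among them 15 of the 18 ligands, had all 3 group means under that 95th percentile. The size of a difference whose lower group lies under 8.31 depends on background. A change in the number of cells and a change in RNA per cell cannot be told apart in these bulk samples.

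Arrays of 1 group correlated over genes at 0.982 or more in DED, 0.992 or more in MA and 0.992 or more in MSC. The mean of 8 adipocyte markers was 9.38 to 10.51 over the DED arrays, 11.33 to 11.45 over the MA arrays and 5.23 to 5.47 over the MSC arrays. All 8 rose in MA against MSC, and 7 fell in DED against MA. The mean of 6 mesenchymal stem cell markers was 13.61 to 13.92 in DED, 13.58 to 13.75 in MA and 14.22 to 14.44 in MSC. Of 7 epithelial and carcinoma markers 0 passed the test in the 3 comparisons, with means of 5.73 to 5.85 in DED, 5.67 to 5.76 in MA and 5.72 to 5.98 in MSC. In each group 4 of the 7 (EPCAM, CDH1, KRT18 and KRT80) were below the median of the negative controls. Only 6 of the 7 were below their 95th percentile, so not every marker of this list was at background.

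Between DED and MA, 14 members rose, 10 fell and 25 did not pass the test, where 12.9% of all genes rose and 13.0% fell. The median log2 difference of the members was 0.066, against 0.018 over all genes. In 17 members the 2 groups had separate ranges, against 18.1% of all genes. The largest rises were those of the BMP antagonist GREM1, the type I receptor TGFBR1 and the ligand GDF15, and the largest falls those of the co-receptor TGFBR3, the type I receptor ACVR1C and the latent TGF-beta binding protein LTBP1. Of these, GDF15 and ACVR1C had all group means under 8.31. Between MA and MSC, 13 members rose, 17 fell and 19 did not pass, where 15.4% of all genes rose and 17.6% fell. The median was 0.012 for the members and -0.002 for all genes, and the groups did not overlap in 28 members, against 27.0% of all genes. In DED against MSC, 15 members rose, 12 fell and 22 did not pass, with 17.1% and 16.4% of all genes rising and falling. The median was -0.006 for the members and 0.028 for all genes, and 23 members did not overlap, against 25.1% of all genes. Each pair of comparisons shares 1 group of arrays, so the values are given side by side for each gene and no overlap is drawn between them.

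**Figure D1:**
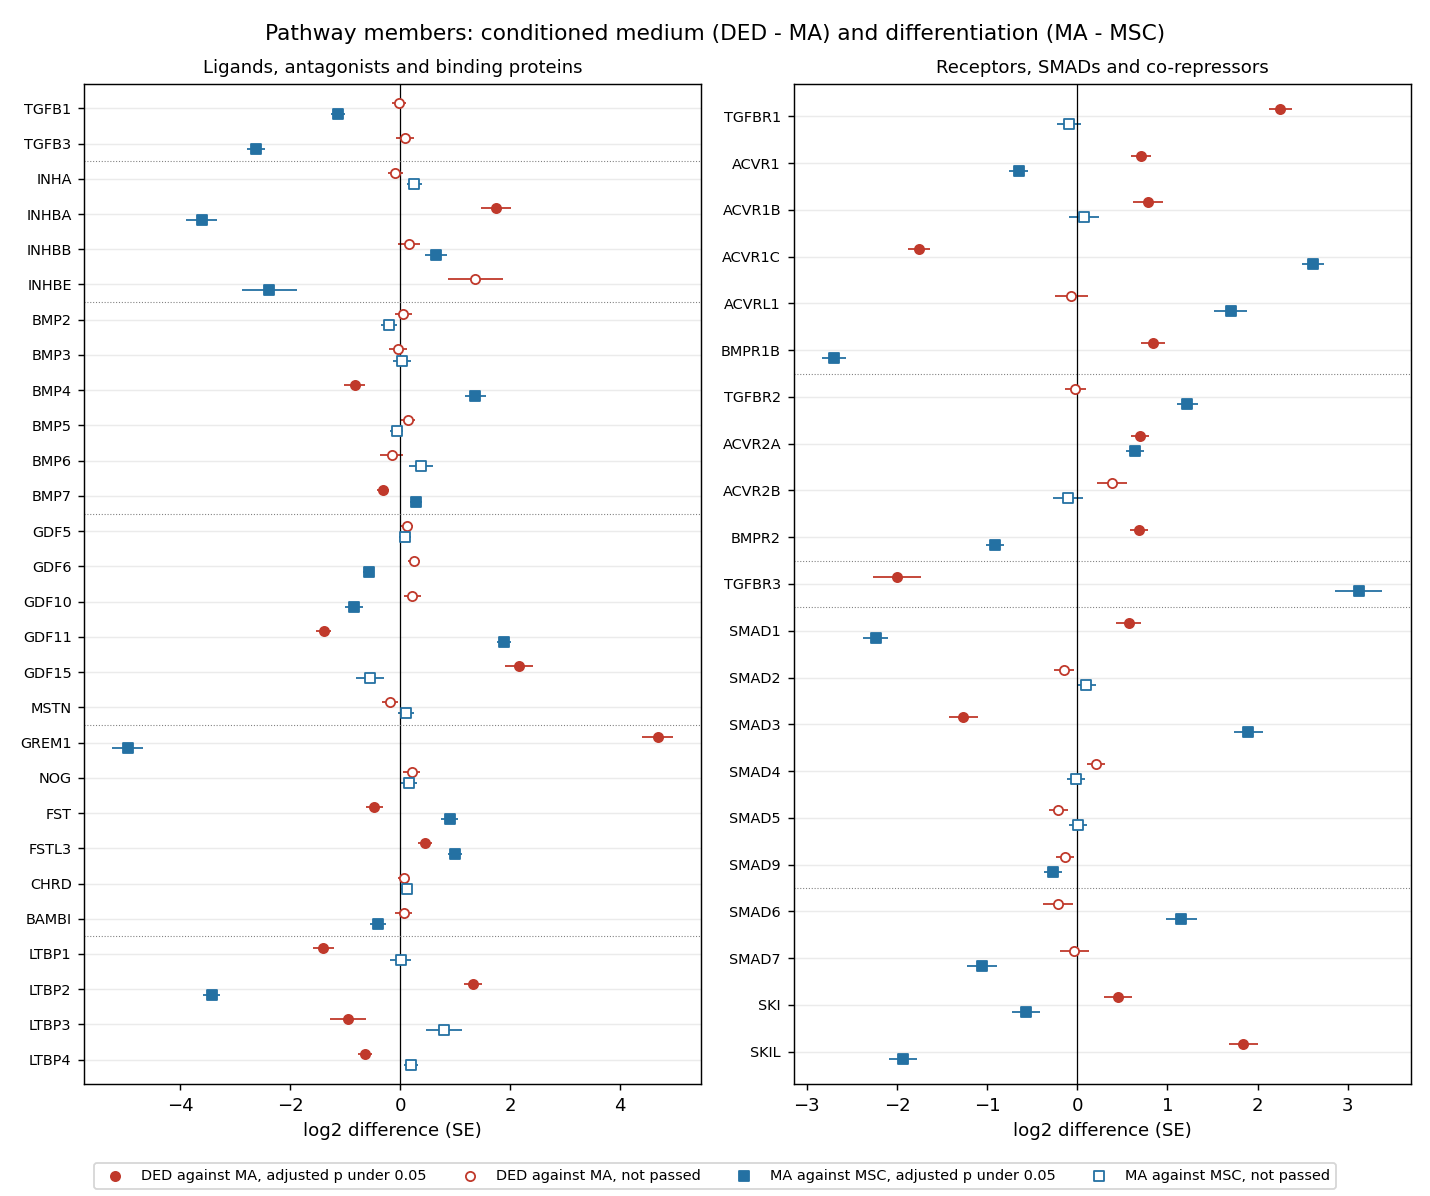
Log2 difference (x axis, bars are the SE of the moderated difference) of each of the 49 members (rows, ordered by role) for DED against MA (red circles) and MA against MSC (blue squares), filled where the adjusted p was under 0.05. GREM1 has the largest distance from 0 in both comparisons, at 4.68 and -4.95, and both comparisons share the MA arrays.

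Promoter windows of the 3 members with the largest rise and the 3 with the largest fall in DED against MA are shown because the report turns on these genes. They run from 250 bases before to 50 bases after the first listed RefSeq start of the gene (GRCh38.p14), 5′ to 3′ on the gene's own strand. GREM1 is at chr15:32717754-32718053 (plus strand), TGFBR1 at chr9:99104863-99105162 (plus) and GDF15 at chr19:18385908-18386207 (plus). TGFBR3 is at chr1:91886102-91886401 (minus), ACVR1C at chr2:157628815-157629114 (minus) and LTBP1 at chr2:32946703-32947002 (plus). Capitals mark the letters of 5 motifs searched on both strands, namely the palindromic SMAD binding element GTCTAGAC, the CAGA box core CAGACA, the GC-rich SMAD site GGCGCC, the cAMP response element TGACGTCA and the TATA box TATAAA.
GREM1: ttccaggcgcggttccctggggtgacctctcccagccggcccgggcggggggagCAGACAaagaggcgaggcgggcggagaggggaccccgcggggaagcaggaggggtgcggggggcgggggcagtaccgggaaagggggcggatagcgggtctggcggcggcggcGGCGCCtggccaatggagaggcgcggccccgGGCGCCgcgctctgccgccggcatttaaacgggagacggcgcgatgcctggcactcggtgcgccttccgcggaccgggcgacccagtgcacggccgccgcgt
TGFBR1: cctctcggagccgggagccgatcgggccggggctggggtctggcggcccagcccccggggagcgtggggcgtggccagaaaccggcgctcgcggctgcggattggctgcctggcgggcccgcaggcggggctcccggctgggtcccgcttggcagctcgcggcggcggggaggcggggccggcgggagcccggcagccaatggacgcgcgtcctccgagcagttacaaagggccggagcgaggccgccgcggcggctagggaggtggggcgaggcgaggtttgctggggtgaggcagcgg
GDF15: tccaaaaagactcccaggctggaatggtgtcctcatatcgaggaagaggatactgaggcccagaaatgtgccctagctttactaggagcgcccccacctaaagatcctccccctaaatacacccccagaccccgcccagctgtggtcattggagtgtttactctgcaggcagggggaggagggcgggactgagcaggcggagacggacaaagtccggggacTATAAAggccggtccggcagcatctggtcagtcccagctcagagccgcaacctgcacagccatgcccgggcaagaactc
TGFBR3: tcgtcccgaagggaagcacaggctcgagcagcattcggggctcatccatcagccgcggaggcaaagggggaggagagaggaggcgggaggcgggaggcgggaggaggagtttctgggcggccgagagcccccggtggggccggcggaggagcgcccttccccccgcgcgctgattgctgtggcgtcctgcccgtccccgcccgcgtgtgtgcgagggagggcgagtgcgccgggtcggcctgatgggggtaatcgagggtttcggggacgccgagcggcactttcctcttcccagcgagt
ACVR1C: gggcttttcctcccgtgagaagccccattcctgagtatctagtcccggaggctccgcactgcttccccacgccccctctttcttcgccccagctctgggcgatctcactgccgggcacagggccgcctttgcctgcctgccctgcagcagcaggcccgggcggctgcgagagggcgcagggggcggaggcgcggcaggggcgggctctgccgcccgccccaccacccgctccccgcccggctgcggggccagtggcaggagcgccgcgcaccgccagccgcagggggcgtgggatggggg
LTBP1: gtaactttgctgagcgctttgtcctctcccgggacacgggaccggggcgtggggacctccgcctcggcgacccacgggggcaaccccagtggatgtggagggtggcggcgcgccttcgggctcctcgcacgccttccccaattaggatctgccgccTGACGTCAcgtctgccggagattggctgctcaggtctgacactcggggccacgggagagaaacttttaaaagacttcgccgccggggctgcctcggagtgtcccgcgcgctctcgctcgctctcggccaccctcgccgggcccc

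GREM1 holds CAGACA at bases 55 to 60 of its window and GGCGCC at 168 to 173 and 199 to 204, GDF15 holds TATAAA at 222 to 227, and LTBP1 holds TGACGTCA at 157 to 164. No searched letters are in the windows shown for TGFBR1, TGFBR3 and ACVR1C. Only the first listed window of a gene was searched, where 8 are listed for TGFBR1, 3 for LTBP1 and 2 each for GREM1 and ACVR1C. The TGFBR3 window lies within the gene, whose 5′ end is at 91906002, and the TGFBR1 window lies after the gene start at 99103647. Other starts of these genes are not covered. Among the 27305 RefSeq windows of this length, the share with a match was 0.201% for GTCTAGAC, 16.8% for CAGACA, 19.0% for GGCGCC, 1.98% for TGACGTCA and 12.0% for TATAAA. Of the 41 members with a window 1 holds GTCTAGAC (SMAD6), 7 hold CAGACA, 16 hold GGCGCC, 2 hold TGACGTCA (LTBP1 and SKIL) and 6 hold TATAAA. A match of letters is a description of the sequence and not a site of binding.

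Of the 18 ligands 2 rose and 3 fell in DED against MA, 4 rose and 6 fell in MA against MSC, and 4 rose and 5 fell in DED against MSC. The share past the test was 27.8% of the ligands in DED against MA, against 25.9% of all genes and so near it, 55.6% in MA against MSC, against 33.0%, and 50% in DED against MSC, against 33.4%. TGFB1 and TGFB3 encode TGF-beta isoforms. TGFB3 was at 6.88, 6.78, 6.70, 6.74 and 6.30 in DED arrays 1 to 5, at 6.34, 6.79, 7.00, 6.36 and 6.47 in MA and at 9.37, 9.68, 9.19, 9.08 and 8.74 in MSC. The MSC arrays were high and did not overlap the others, while DED and MA overlapped. TGFB3 fell by 2.62 in MA against MSC (SE 0.17, limma adjusted p = 1.3e-10), was at 0.09 in DED against MA (adjusted p = 0.77) and fell by 2.53 in DED against MSC (adjusted p = 1.7e-10). TGFB1 averaged 6.54 ± 0.03 in DED, 6.55 ± 0.21 in MA and 7.67 ± 0.28 in MSC (SD, n = 5 each). It fell by 1.12 in MA against MSC (SE 0.13, limma adjusted p = 7.0e-07) and was at -0.01 in DED against MA (adjusted p = 0.96), all group means lying under 8.31.

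INHBA encodes the beta A subunit, which forms activin A as a homodimer. INHBA was at 9.91, 10.16, 12.10, 10.67 and 10.43 in DED, at 8.90, 8.91, 8.50, 8.88 and 9.35 in MA and at 12.37, 12.75, 12.49, 12.41 and 12.55 in MSC. The 3 groups did not overlap, with DED between MSC and MA and DED array 3 nearest to MSC. INHBA rose by 1.75 in DED against MA (SE 0.28, limma adjusted p = 6.9e-05), fell by 3.61 in MA against MSC (SE 0.28, adjusted p = 2.1e-09) and fell by 1.86 in DED against MSC (adjusted p = 1.9e-05). INHBE, the beta E subunit, known from liver and fat, had 5.28, 5.36, 9.21, 6.74 and 6.37 in DED, 5.24, 5.48, 4.31, 5.74 and 5.35 in MA and 7.68, 8.0, 7.13, 7.47 and 7.73 in MSC. Its DED arrays spread widely, array 3 lying above every MSC array and arrays 1 and 2 within the MA range. INHBE fell by 2.38 in MA against MSC (SE 0.50, limma adjusted p = 0.00081), all group means lying under 8.31. Against MA, DED was at 1.37 (SE 0.50, adjusted p = 0.051), and the difference was 0.71 (adjusted p = 0.089) without DED array 3. It was 1.70 (adjusted p = 0.015) without DED array 1 and 1.68 (0.019) without DED array 2. Without DED arrays 1 and 3 together it was 0.93 (adjusted p = 0.032), and with weights for arrays 1.24 (0.026). In all, INHBE passed in this comparison under 6 of 24 settings. In DED against MSC it was at -1.01 (adjusted p = 0.14), and at -1.66 (adjusted p = 0.00015) without DED array 3. INHBB, the beta B subunit, averaged 8.41 ± 0.62 in DED, 8.24 ± 0.15 in MA and 7.58 ± 0.06 in MSC. It rose by 0.65 in MA against MSC (SE 0.20, limma adjusted p = 0.016) and by 0.82 in DED against MSC (adjusted p = 0.0030), and was at 0.17 in DED against MA (adjusted p = 0.61). INHA, the alpha subunit of the inhibins, passed in none of the 3 comparisons.

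Among the 6 BMP ligands 0 rose and 2 fell in DED against MA, and 2 rose and 0 fell in MA against MSC. The share past the test was 33.3% in both, against 25.9% and 33.0% of all genes, the last being nearly equal. BMP4, which is known to commit progenitors to the fat lineage, was at 5.47, 5.22, 4.34, 5.37 and 4.91 in DED, at 5.84, 5.46, 6.24, 5.72 and 6.18 in MA and at 4.83, 4.65, 4.38, 4.36 and 4.38 in MSC. The MA arrays lay above all MSC arrays, and DED overlapped both, with MA only just and through its array 1. BMP4 fell by 0.83 in DED against MA (SE 0.19, limma adjusted p = 0.0027) and rose by 1.37 in MA against MSC (SE 0.19, adjusted p = 8.8e-06), all group means lying under 8.31. It rose by 0.54 in DED against MSC (adjusted p = 0.035), a call lost without any 1 of MSC arrays 3 to 5 or DED arrays 1, 2 and 4 (adjusted p from 0.073 to 0.099). BMP7 averaged 3.88 in DED, 4.18 in MA and 3.89 in MSC, under the negative control median in every group. Its differences of -0.31 in DED against MA (limma adjusted p = 0.043) and 0.29 in MA against MSC (adjusted p = 0.044) each lost the call without any 1 of 8 arrays. For the first these were MSC arrays 2 and 5, MA arrays 2 and 3 and DED arrays 2 to 5 (adjusted p from 0.051 to 0.12), and for the second MSC arrays 1, 2, 3 and 5, MA arrays 2 and 3 and DED arrays 4 and 5 (0.052 to 0.12). BMP2, BMP3, BMP5 and BMP6 passed in none of the 3 comparisons. Without DED array 3, BMP6 passed in MA against MSC (0.38, adjusted p = 0.036) and in DED against MSC (0.49, adjusted p = 0.012).

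GDF11 is a ligand close to myostatin that signals through SMAD2 and SMAD3. GDF11 was at 7.21, 6.92, 6.70, 7.05 and 6.71 in DED, at 8.38, 8.24, 8.48, 7.90 and 8.52 in MA and at 6.30, 6.68, 6.35, 6.43 and 6.31 in MSC. The MA arrays were high and overlapped neither other group, and the DED arrays were all above the MSC arrays. GDF11 fell by 1.39 in DED against MA (SE 0.13, limma adjusted p = 1.3e-07), rose by 1.89 in MA against MSC (SE 0.13, adjusted p = 6.5e-10) and rose by 0.50 in DED against MSC (adjusted p = 0.0059). All group means of GDF11 lay under 8.31. GDF15, a stress-induced hormone that acts on food intake through the receptor GFRAL, had 7.03, 7.55, 8.63, 7.73 and 7.57 in DED, 6.50, 5.01, 5.59, 5.44 and 5.18 in MA and 6.25, 6.06, 5.79, 6.33 and 6.01 in MSC. All DED arrays were above all MA and MSC arrays, with DED array 3 highest. GDF15 rose by 2.16 in DED against MA (SE 0.26, limma adjusted p = 2.1e-06) and by 1.61 in DED against MSC (adjusted p = 4.2e-05), all group means lying under 8.31. The difference of MA against MSC was -0.54 (adjusted p = 0.12), and -0.78 (adjusted p = 0.012) without MA array 1. GDF6 fell by 0.57 (limma adjusted p = 0.00018) and GDF10 by 0.84 (adjusted p = 0.00029) in MA against MSC, and neither passed in DED against MA. In DED against MSC GDF10 fell by 0.62 (adjusted p = 0.0047) and GDF6 by 0.32 (adjusted p = 0.022). The call of GDF6 was lost without MSC array 1 (adjusted p = 0.065) or DED array 2 (0.067). GDF5 and MSTN, which encodes myostatin, passed in none of the 3 comparisons.

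Of the 11 receptors 6 rose and 2 fell in DED against MA, 5 rose and 3 fell in MA against MSC, and 7 rose and 1 fell in DED against MSC. In each comparison 72.7% of the receptors passed, against 25.9%, 33.0% and 33.4% of all genes. Their median log2 differences were 0.68, 0.07 and 0.86 in these comparisons, where all genes had 0.018, -0.002 and 0.028. Of the 6 type I receptors 4 rose and 1 fell in DED against MA, and of the 4 type II receptors 2 rose and 0 fell. TGFBR1, the type I receptor for TGF-beta (ALK5), was at 10.33, 10.67, 10.74, 10.52 and 10.72 in DED, at 8.45, 7.94, 8.57, 8.48 and 8.28 in MA and at 8.42, 8.34, 8.33, 8.74 and 8.36 in MSC. The DED arrays stood apart above both other groups, and MA and MSC overlapped. TGFBR1 rose by 2.25 in DED against MA (SE 0.13, limma adjusted p = 9.1e-11) and by 2.16 in DED against MSC (adjusted p = 4.2e-11), and was at -0.09 in MA against MSC (adjusted p = 0.65).

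ACVR1C encodes ALK7, a type I receptor that is known to be abundant in fat cells and to restrain lipolysis. ACVR1C was at 6.57, 6.38, 6.40, 6.13 and 6.83 in DED, at 8.20, 8.19, 8.21, 8.48 and 8.02 in MA and at 5.68, 5.62, 5.70, 5.55 and 5.48 in MSC. The groups did not overlap, with DED between MA and MSC. ACVR1C fell by 1.76 in DED against MA (SE 0.12, limma adjusted p = 1.4e-09), rose by 2.61 in MA against MSC (SE 0.12, adjusted p = 1.3e-12) and rose by 0.86 in DED against MSC (adjusted p = 1.3e-05). All group means of ACVR1C lay under 8.31. TGFBR3 (betaglycan), a co-receptor that presents TGF-beta to its receptors and inhibin to activin receptors, had 12.94, 12.53, 10.74, 11.96 and 12.04 in DED, 14.02, 13.83, 14.07, 14.33 and 13.95 in MA and 11.01, 10.84, 11.12, 11.03 and 10.60 in MSC. MA was above both other groups, while DED array 3 lay within the MSC range and the other DED arrays above it. TGFBR3 fell by 2.0 in DED against MA (SE 0.27, limma adjusted p = 7.8e-06), rose by 3.12 in MA against MSC (SE 0.27, adjusted p = 8.9e-09) and rose by 1.12 in DED against MSC (adjusted p = 0.0022). Both groups of each comparison lay above 8.31. The mean of the adipocyte markers moved in the same directions in these comparisons. Among the DED arrays it was highest in array 1 (10.51, against 9.38 to 9.65 in the others), as was TGFBR3. At the low end they differed, with TGFBR3 lowest in array 3 and the marker mean in array 4 (9.38). ACVR1C was highest in array 5. The part of the adipocyte markers in these results was not tested.

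**Figure D2:**
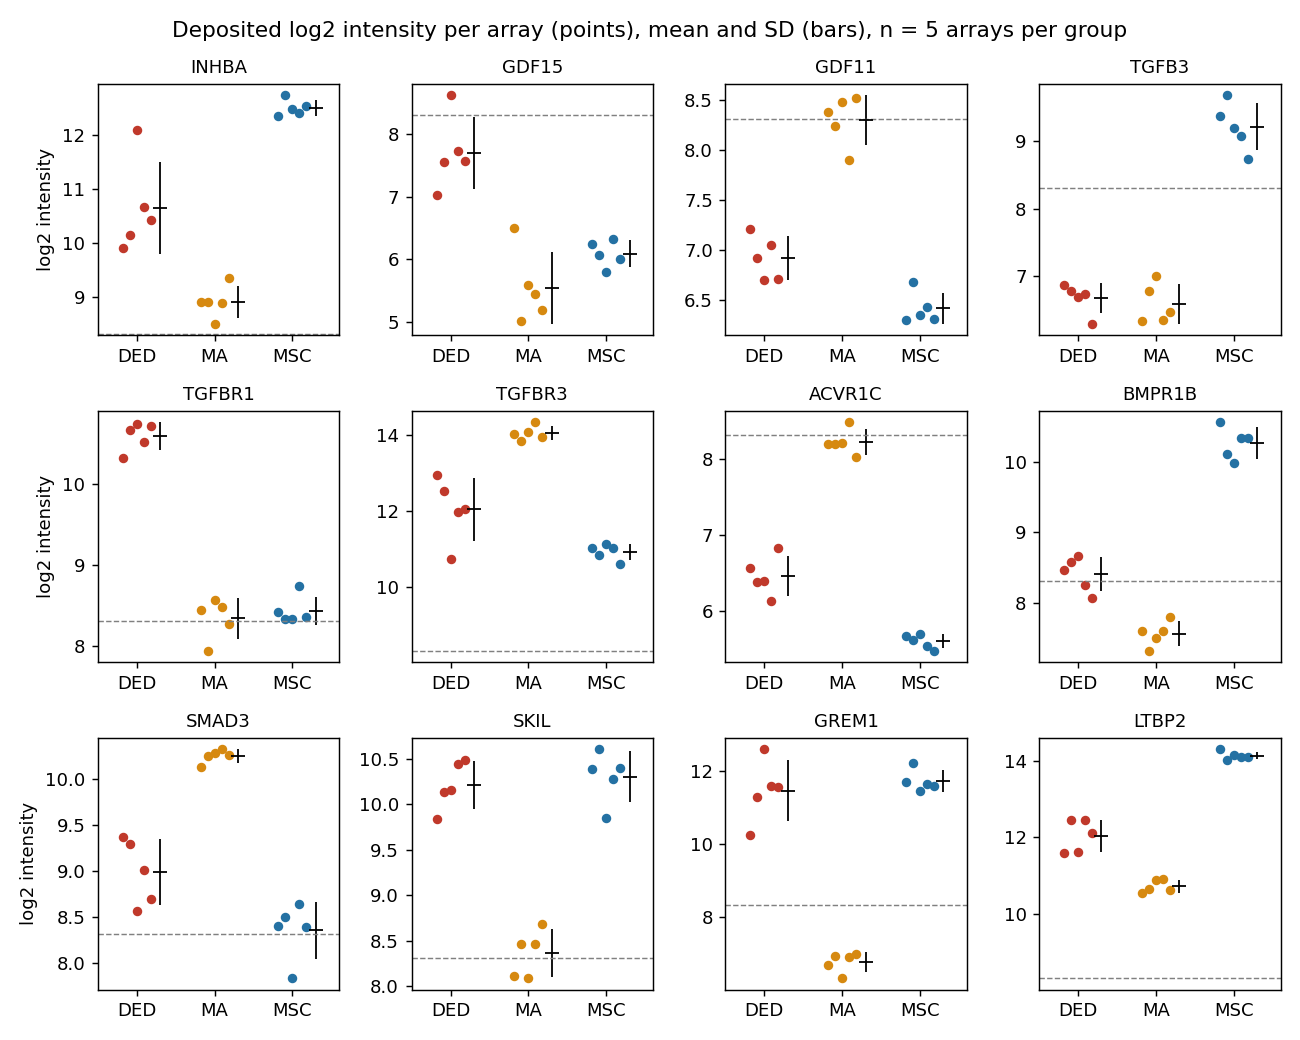
Log2 intensity (y axis) of selected members on each array, with 5 points a group in the order DED, MA and MSC, a cross at the group mean with a bar of 1 SD to each side, and a dashed line at the 95th percentile of the negative control probe sets (8.31). TGFBR1 lies apart in DED, ACVR1C and TGFBR3 are highest in MA, and INHBA and GREM1 are lowest in MA.

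BMPR1B, a type I receptor for BMPs and GDF5, was at 8.47, 8.58, 8.67, 8.26 and 8.07 in DED, at 7.61, 7.32, 7.51, 7.60 and 7.80 in MA and at 10.56, 10.11, 9.98, 10.34 and 10.34 in MSC. The groups did not overlap, MSC being highest. BMPR1B rose by 0.84 in DED against MA (limma adjusted p = 8.2e-05), fell by 2.70 in MA against MSC (SE 0.14, adjusted p = 3.5e-12) and fell by 1.86 in DED against MSC (adjusted p = 8.3e-10). ACVR1 (ALK2), which also carries BMP signals, rose by 0.71 in DED against MA (adjusted p = 3.9e-05) and fell by 0.65 in MA against MSC (adjusted p = 6.3e-05), with means of 10.87 in DED, 10.16 in MA and 10.81 in MSC. ACVR1B (ALK4), the type I receptor of activin, rose by 0.79 in DED against MA (limma adjusted p = 0.0011) and was at 0.07 in MA against MSC (adjusted p = 0.80), with all group means under 8.31. ACVRL1 (ALK1), best known from endothelial cells as a receptor for BMP9 and BMP10, averaged 11.55 ± 0.47 in DED, 11.61 ± 0.19 in MA and 9.91 ± 0.27 in MSC. It rose by 1.70 in MA against MSC (SE 0.19, limma adjusted p = 3.3e-07) and was at -0.07 in DED against MA (adjusted p = 0.85). Of 5 endothelial markers 0 rose in the 3 comparisons, 1 fell in MA against MSC, 1 fell in DED against MSC and 0 fell in DED against MA. The mean over the list was 5.16 to 5.51 in DED, 5.35 to 5.54 in MA and 6.09 to 6.34 in MSC. A part of endothelial cells in the ACVRL1 result was not tested.

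TGFBR2, the type II receptor for TGF-beta, was at 14.74, 14.44, 14.60, 14.42 and 14.47 in DED, at 14.54, 14.37, 14.68, 14.75 and 14.43 in MA and at 13.54, 13.23, 13.13, 13.36 and 13.40 in MSC. DED and MA overlapped, and both lay above MSC. TGFBR2 rose by 1.22 in MA against MSC (SE 0.11, limma adjusted p = 2.9e-08) and by 1.20 in DED against MSC (adjusted p = 3.2e-08), and was at -0.02 in DED against MA (adjusted p = 0.93). ACVR2A, a type II receptor for activin and several BMPs, averaged 10.53 ± 0.15 in DED, 9.83 ± 0.06 in MA and 9.19 ± 0.13 in MSC. It rose by 0.70 in DED against MA (limma adjusted p = 3.0e-05) and by 0.64 in MA against MSC (adjusted p = 4.8e-05), and no 2 groups shared a range. BMPR2, the BMP type II receptor, averaged 12.90 ± 0.08 in DED, 12.22 ± 0.15 in MA and 13.13 ± 0.09 in MSC. It rose by 0.68 in DED against MA (limma adjusted p = 2.7e-05), fell by 0.91 in MA against MSC (adjusted p = 3.5e-07) and was at -0.23 in DED against MSC (adjusted p = 0.090). ACVR2B passed in none of the 3 comparisons.

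Of the 10 SMADs and co-repressors 3 rose and 1 fell in DED against MA, 2 rose and 5 fell in MA against MSC, and 2 rose and 3 fell in DED against MSC. The share past the test was 40.0%, 70.0% and 50%, against 25.9%, 33.0% and 33.4% of all genes. SMAD2, SMAD4 and SMAD5 passed in none of the 3 comparisons. SMAD4, the partner of all receptor-activated SMADs, averaged 13.14 in DED, 12.93 in MA and 12.95 in MSC. SMAD3, which carries TGF-beta and activin signals, was at 9.37, 9.29, 8.56, 9.01 and 8.69 in DED, at 10.13, 10.25, 10.28, 10.32 and 10.26 in MA and at 8.40, 8.50, 7.83, 8.64 and 8.39 in MSC. MA overlapped neither other group, and DED overlapped MSC through DED array 3. SMAD3 fell by 1.26 in DED against MA (SE 0.16, limma adjusted p = 4.5e-06), rose by 1.90 in MA against MSC (SE 0.16, adjusted p = 8.5e-09) and rose by 0.63 in DED against MSC (adjusted p = 0.0040).

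SMAD1, which carries BMP signals, had 7.72, 7.70, 7.58, 7.32 and 7.57 in DED, 6.91, 6.74, 7.45, 7.22 and 6.72 in MA and 9.10, 9.41, 9.13, 9.47 and 9.12 in MSC. MSC stood apart above the others, and DED and MA overlapped. SMAD1 rose by 0.57 in DED against MA (limma adjusted p = 0.0046), fell by 2.24 in MA against MSC (SE 0.14, adjusted p = 1.1e-10) and fell by 1.67 in DED against MSC (adjusted p = 7.7e-09). SMAD9, also on the BMP side, fell by 0.41 in DED against MSC (limma adjusted p = 0.0031). SMAD9 in MA against MSC was at -0.27 (adjusted p = 0.044), a call lost without any 1 of MSC arrays 1, 2, 3 and 5, MA arrays 1, 3 and 4 or DED arrays 4 and 5 (adjusted p from 0.050 to 0.10).

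The inhibitory SMADs differed in direction in MA against MSC. SMAD7, which binds TGF-beta receptors and marks them for breakdown, averaged 7.52 ± 0.34 in DED, 7.55 ± 0.31 in MA and 8.61 ± 0.16 in MSC. It fell by 1.06 in MA against MSC (SE 0.16, limma adjusted p = 3.0e-05) and by 1.09 in DED against MSC (adjusted p = 1.9e-05), and was at -0.03 in DED against MA (adjusted p = 0.92). SMAD6, which acts mainly on BMP signals, averaged 4.96 ± 0.38 in DED, 5.17 ± 0.32 in MA and 4.02 ± 0.08 in MSC, near the negative control median. It rose by 1.16 in MA against MSC (limma adjusted p = 1.3e-05) and by 0.95 in DED against MSC (adjusted p = 0.00013). SMAD6 in DED against MA was at -0.21 (adjusted p = 0.42), and at -0.38 (adjusted p = 0.047) without DED array 1. SKIL (SnoN), a nuclear co-repressor whose gene is itself induced by TGF-beta, had 9.84, 10.13, 10.16, 10.44 and 10.48 in DED, 8.11, 8.47, 8.09, 8.47 and 8.69 in MA and 10.38, 10.60, 9.85, 10.27 and 10.40 in MSC. MA was low and apart, and DED and MSC overlapped. SKIL rose by 1.84 in DED against MA (SE 0.16, limma adjusted p = 2.1e-08), fell by 1.93 in MA against MSC (SE 0.16, adjusted p = 4.4e-09) and was at -0.09 in DED against MSC (adjusted p = 0.73). The related SKI fell by 0.57 in MA against MSC (limma adjusted p = 0.0067). SKI in DED against MA was at 0.45 (adjusted p = 0.037), a call lost without any 1 of MA arrays 1, 3 and 4 or DED arrays 2 to 4 (adjusted p from 0.052 to 0.11).

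Among the 5 extracellular antagonists and the decoy receptor BAMBI, 2 rose and 1 fell in DED against MA. In MA against MSC 2 rose and 2 fell, and in DED against MSC 2 rose and 0 fell. The share past the test was 50%, 66.7% and 33.3%, against 25.9%, 33.0% and 33.4% of all genes, the last pair being nearly equal. GREM1 (gremlin), which binds BMP2 and BMP4, was at 10.24, 11.29, 12.58, 11.57 and 11.54 in DED, at 6.68, 6.94, 6.32, 6.90 and 6.97 in MA and at 11.70, 12.22, 11.44, 11.63 and 11.57 in MSC. MA was low and far from both others, and DED and MSC overlapped, with DED array 1 lowest and DED array 3 highest of these 10 arrays. GREM1 rose by 4.68 in DED against MA (SE 0.28, limma adjusted p = 1.5e-10), fell by 4.95 in MA against MSC (SE 0.28, adjusted p = 2.1e-11) and was at -0.27 in DED against MSC (adjusted p = 0.53). The MA mean of 6.76 lies below 8.31, and the size of both differences therefore depends on background.

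FST (follistatin) and FSTL3, which bind and neutralise activin, both rose in MA against MSC, FST by 0.90 (SE 0.16, limma adjusted p = 0.00013) and FSTL3 by 1.00 (SE 0.13, adjusted p = 4.3e-06). FSTL3 averaged 8.85 ± 0.08 in DED, 8.40 ± 0.32 in MA and 7.40 ± 0.15 in MSC, and rose by 1.45 in DED against MSC (limma adjusted p = 2.2e-08). FSTL3 in DED against MA was at 0.45 (adjusted p = 0.015), and its adjusted p was 0.0504 without MA array 1. FST averaged 9.19 ± 0.31 in DED, 9.65 ± 0.19 in MA and 8.75 ± 0.30 in MSC. In DED against MA FST was at -0.47 (limma adjusted p = 0.035), a call lost without any 1 of MA arrays 1, 3 and 5 or DED arrays 1, 2 and 4 (adjusted p from 0.051 to 0.10). In DED against MSC FST was at 0.43 (adjusted p = 0.041), a call lost without any 1 of MSC arrays 2 and 5 or DED arrays 1, 3 and 5 (0.053 to 0.14). BAMBI, a receptor without a kinase, was at -0.40 in MA against MSC (limma adjusted p = 0.045), a call lost without any 1 of MSC arrays 1 to 4, MA arrays 1, 2, 4 and 5 or DED array 5 (0.051 to 0.10). BAMBI passed in DED against MSC without MSC array 5 (adjusted p = 0.044) or DED array 4 (0.041). NOG (noggin) and CHRD (chordin), which bind BMPs, passed in none of the 3 comparisons, except that NOG was at 0.51 (adjusted p = 0.0073) in DED against MSC without MSC array 3.

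Of the 4 latent TGF-beta binding proteins 1 rose and 3 fell in DED against MA, and 0 rose and 1 fell in MA against MSC. The share past the test was 100% and 25% in these comparisons, against 25.9% and 33.0% of all genes. LTBP1, which anchors latent TGF-beta in the matrix, had 11.70, 12.26, 10.69, 11.66 and 11.97 in DED, 12.86, 13.00, 13.13, 13.25 and 13.01 in MA and 12.95, 13.06, 13.13, 12.99 and 13.06 in MSC. DED was below both others, its array 3 lowest, and MA and MSC overlapped. LTBP1 fell by 1.39 in DED against MA (SE 0.20, limma adjusted p = 1.5e-05) and by 1.38 in DED against MSC (adjusted p = 9.3e-06), and was at 0.01 in MA against MSC (adjusted p = 0.97). LTBP2, which binds fibrillin and no latent TGF-beta, had 11.58, 12.44, 11.61, 12.45 and 12.11 in DED, 10.53, 10.65, 10.88, 10.90 and 10.61 in MA and 14.30, 14.03, 14.16, 14.10 and 14.11 in MSC. The 3 groups did not overlap, with MSC highest and MA lowest. LTBP2 rose by 1.32 in DED against MA (SE 0.16, limma adjusted p = 2.1e-06), fell by 3.43 in MA against MSC (SE 0.16, adjusted p = 8.7e-13) and fell by 2.10 in DED against MSC (adjusted p = 1.3e-09).

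LTBP3 varied within groups, with 8.56, 8.87, 8.28, 8.66 and 8.50 in DED, 8.15, 9.56, 10.17, 10.04 and 9.72 in MA and 8.20, 8.70, 9.21, 9.62 and 7.92 in MSC. MA array 1 lay below every DED array and the other MA arrays above them. LTBP3 was at -0.95 in DED against MA (SE 0.33, limma adjusted p = 0.036), a call lost without any 1 of MA arrays 2 to 5 or DED arrays 1, 3, 4 and 5 (adjusted p from 0.055 to 0.10). LTBP3 in MA against MSC was at 0.80 (adjusted p = 0.069), and passed without MA array 1 (1.14, adjusted p = 0.0019) or MSC array 4 (1.02, adjusted p = 0.019). LTBP4 fell by 0.64 in DED against MA (limma adjusted p = 0.00070), with all group means under 8.31.

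The DED arrays varied more among themselves in several members. An SD over 0.5 was found for 8 members in DED (INHBA, INHBB, INHBE, BMP6, GDF15, TGFBR3, GREM1 and LTBP1), for 3 in MA and for 1 in MSC. DED array 3 was the highest or lowest of its group in 30 of the 49 members and DED array 1 in 27, against 15, 13 and 13 in DED arrays 2, 4 and 5. In the other groups the most was 25 in MA array 4 and 22 in MSC array 2. Such a count was not made over all genes, so it cannot be taken as particular to the members. Array 3 had the highest INHBA, INHBE, GDF15 and GREM1 and the lowest TGFBR3, SMAD3 and LTBP1 of its group. Array 1 had the lowest INHBA, INHBE, GDF15 and GREM1 and the highest TGFBR3 and SMAD3. The median SD of the members was 0.24 in DED, 0.21 in MA and 0.16 in MSC, against 0.22, 0.20 and 0.19 over all genes. Without DED arrays 1 and 3 together, 23 members passed in DED against MA (14 rose and 9 fell). The share of all genes past the test without these arrays was not set beside this count.

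**Figure D3:**
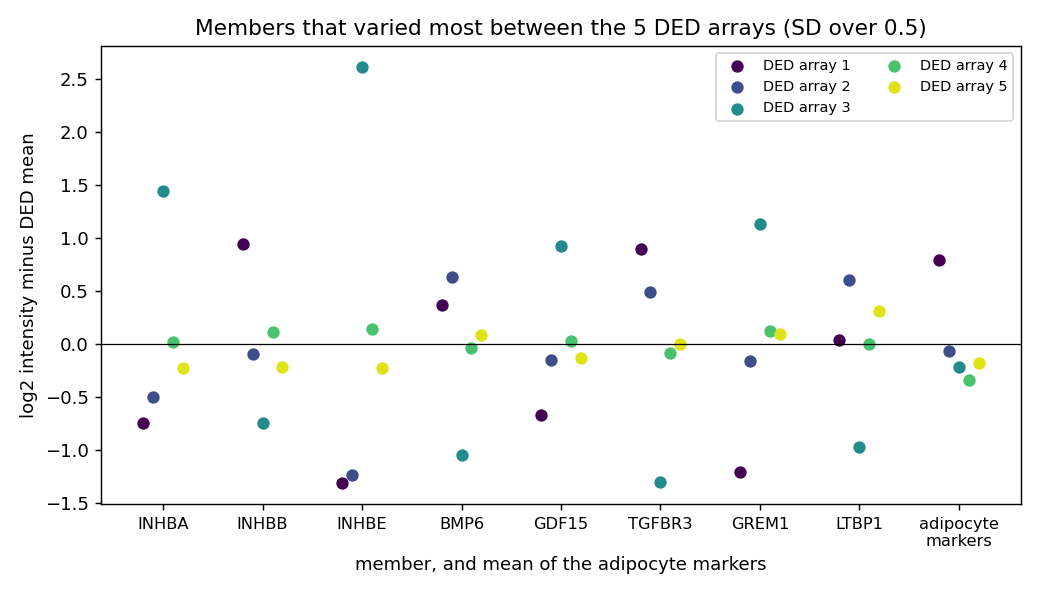
Deviation from the DED group mean (y axis, log2 intensity) on DED arrays 1 to 5 (colours) of the 8 members with an SD over 0.5 in DED and of the mean of the adipocyte markers (x axis). INHBE spans the widest range, from 5.28 in array 1 to 9.21 in array 3, and TGFBR3 and LTBP1 are lowest in array 3.

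Genes known to respond to TGF-beta and activin, a list of 28 of which 26 were measured, moved in both directions. In DED against MA 11 rose and 4 fell (median 0.33, against 0.018 over all genes). In MA against MSC 6 rose and 15 fell (median -1.02, against -0.002), and in DED against MSC 9 rose and 12 fell (median -0.24, against 0.028). The share past the test was 57.7%, 80.8% and 80.8% in these comparisons, against 25.9%, 33.0% and 33.4% of all genes. The largest rises in DED against MA were those of JUNB, an AP-1 factor (2.42), the matricellular protein CCN1 (1.47) and THBS1, thrombospondin 1, which can activate latent TGF-beta (1.44). TGFBI, a matrix protein named for its induction by TGF-beta, averaged 7.53 ± 0.65 in DED, 10.95 ± 0.14 in MA and 16.40 ± 0.03 in MSC. It fell by 3.41 in DED against MA (SE 0.21), fell by 5.46 in MA against MSC and fell by 8.87 in DED against MSC. COL1A1 fell by 0.69 and POSTN, periostin, fell by 0.65 in DED against MA. In MA against MSC COMP (2.83), EDN1 (1.16) and CDKN1A (1.15) rose most, and POSTN fell by 7.33 and ADAM12 by 5.25. The mean of the list over the DED arrays was 10.91 in array 3 and 10.39 to 10.56 in the other 4.

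Genes known to respond to BMPs, 12 in number, gave 3 rises and 1 fall in DED against MA (median 0.07), 1 rise and 4 falls in MA against MSC (median -0.04) and 2 rises and 2 falls in DED against MSC (median 0.03), where the medians of all genes were 0.018, -0.002 and 0.028. The share past the test was 33.3%, 41.7% and 33.3% in these comparisons, against 25.9%, 33.0% and 33.4% of all genes, the last pair being nearly equal. The ID genes, which encode dominant negative helix-loop-helix factors, did not move together in DED against MA. In MA against MSC ID1, ID2 and ID3 all fell. ID4 passed in no comparison, with all group means under 8.31. ID1 averaged 3.55 ± 0.37 in DED, 6.42 ± 0.19 in MA and 7.26 ± 0.74 in MSC. It fell by 2.86 in DED against MA (limma adjusted p = 4.8e-08) and by 3.71 in DED against MSC (adjusted p = 3.9e-10). All group means of ID1 lay under 8.31, and its DED mean lay under the negative control median. The size of these falls therefore depends on background. ID2 averaged 9.87 ± 0.37 in DED, 7.24 ± 0.14 in MA and 8.80 ± 0.27 in MSC, and rose by 2.63 in DED against MA and fell by 1.57 in MA against MSC. ID3 averaged 7.90 ± 0.48 in DED, 6.86 ± 0.39 in MA and 10.41 ± 0.33 in MSC. It rose by 1.04 in DED against MA (limma adjusted p = 0.0012) and fell by 3.55 in MA against MSC. The DED and MA means of ID3 lay under 8.31, as did the MA mean of ID2. RUNX2, the osteoblast factor, averaged 12.54 ± 0.30 in DED, 9.81 ± 0.42 in MA and 12.31 ± 0.21 in MSC. ALPL, alkaline phosphatase, rose by 1.82 in MA against MSC and by 1.95 in DED against MSC.

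**Figure D4:**
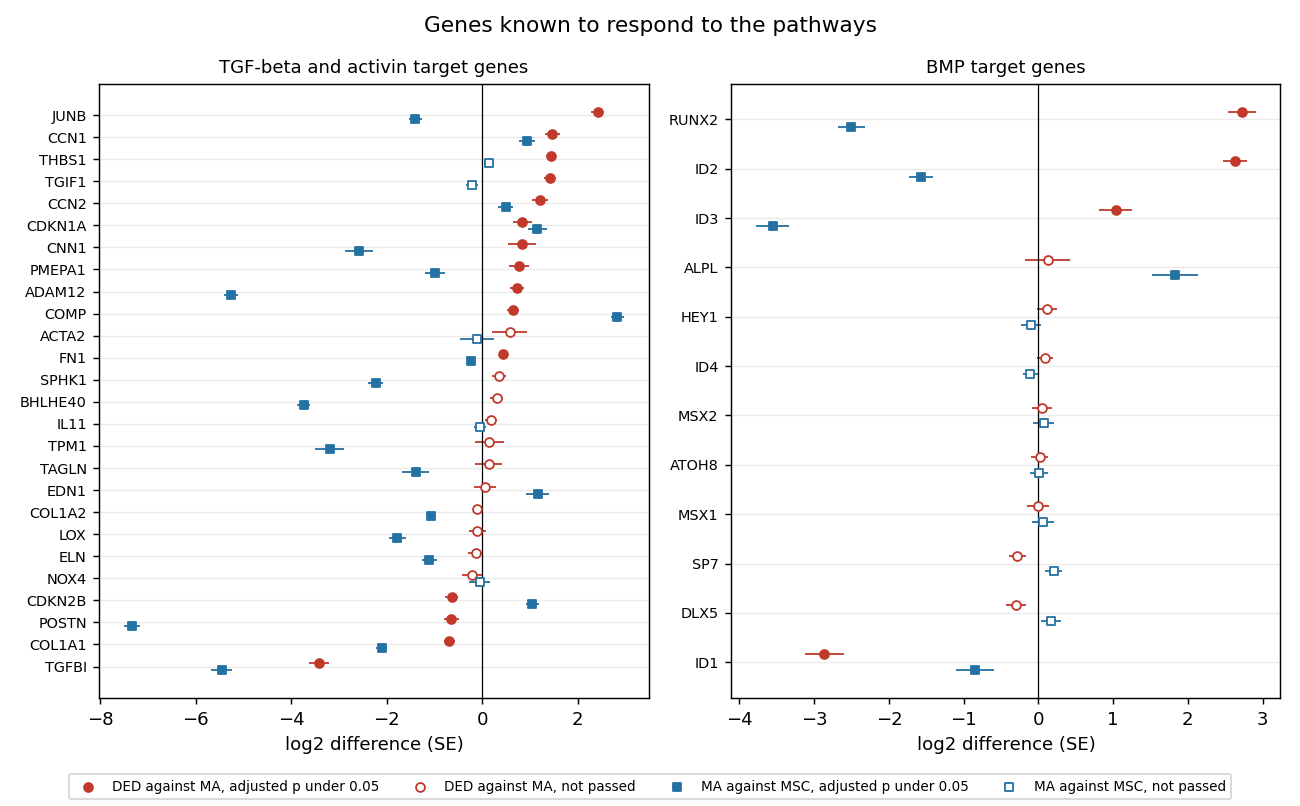
Log2 difference (x axis, bars are the SE) of 26 TGF-beta and activin target genes and 12 BMP target genes (rows) for DED against MA (red circles) and MA against MSC (blue squares), filled where the adjusted p was under 0.05. In DED against MA 11 and 3 of them rose and 4 and 1 fell, with TGFBI at -3.41 and ID1 at -2.86 the lowest of each panel.

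Of 22 measured genes for the processing, activation and matrix storage of ligands 6 rose and 3 fell in DED against MA, 5 rose and 7 fell in MA against MSC, and 4 rose and 8 fell in DED against MSC. The share past the test was 40.9%, 54.5% and 54.5%, against 25.9%, 33.0% and 33.4% of all genes. FBN2 (fibrillin 2), a microfibril protein that binds latent complexes, averaged 12.00 in DED, 8.39 in MA and 6.37 in MSC, and rose by 3.62 in DED against MA. BGN (biglycan) rose by 1.37 and LRRC32 (GARP), which holds latent TGF-beta at the cell surface, by 1.27 in that comparison. ASPN (asporin), a proteoglycan that binds TGF-beta, averaged 6.27 in DED, 9.52 in MA and 12.10 in MSC, and fell by 3.25 in DED against MA. ITGB3 fell by 0.98 and FURIN, a protease that cleaves ligand precursors, by 0.33. In MA against MSC ITGB8, an integrin subunit that activates TGF-beta, rose by 4.35, PCSK5 by 2.22 and FBN2 by 2.01, and BGN fell by 3.88, ASPN by 2.58 and LRRC32 by 2.56.

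Of 10 other measured antagonists 1 rose and 3 fell in DED against MA, and 3 rose and 2 fell in MA against MSC. The share past the test was 40% and 50%, against 25.9% and 33.0% of all genes. CHRDL1, a chordin-like BMP antagonist, averaged 14.77 ± 0.29 in DED, 14.89 ± 0.05 in MA and 8.14 ± 0.14 in MSC, rising by 6.75 in MA against MSC and by 6.63 in DED against MSC. VASN (vasorin), which binds TGF-beta, rose by 0.76 in DED against MA, and CD109, a TGF-beta co-receptor that dampens its signal, fell by 1.58, BMPER by 0.72 and NBL1 by 0.60. Of 7 other receptors and co-receptors 1 rose and 0 fell in DED against MA, namely ENG (endoglin) by 0.74. In MA against MSC RGMA, a BMP co-receptor, rose by 2.17 while ENG fell by 1.18. The share of these receptors past the test was 14.3% and 28.6%, below the 25.9% and 33.0% of all genes. Of 19 measured intracellular regulators 3 rose and 2 fell in DED against MA, where XIAP rose by 0.59, ZFYVE9 (SARA), which presents SMADs to the receptor, by 0.49 and USP9X by 0.39. The ubiquitin ligases SMURF2 and WWP1 each fell by 0.90. In MA against MSC 3 rose and 7 fell, NEDD4L (0.72) rising most and HGS (-0.90) falling most. The share of these regulators past the test was 26.3% in DED against MA, near the 25.9% of all genes, and 52.6% in MA against MSC, against 33.0%. Of 12 other measured ligands 0 passed in DED against MA (limma, 0 at an unadjusted p under 0.05) and 0 in DED against MSC (3 unadjusted). In MA against MSC GDF2, which encodes BMP9, was at 0.37 (limma adjusted p = 0.034). The share past the test was 0%, 0% and 8.33% in these comparisons, against 25.9%, 33.4% and 33.0% of all genes. In each group all 12 had means under 8.31, and 7 of them under the negative control median, so these counts come from probe sets near background.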

How the data were processed

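The authors deposited log2 intensities of all 15 arrays in 1 table, which the submitters' processing notes credit to RMA and Transcriptome Analysis Console. RMA sets the arrays to a common distribution and so hides any shift that every gene of a group shares. Its version and variant, and the build behind the probe sets, are details not given in the sources used here. Of 24351 probe sets 17709 carried 1 gene symbol in the platform annotation, and all 17709 Entrez identifiers matched the reference gene table. Where a gene had more than 1 probe set (20 genes), the one with the highest mean was kept, leaving 17687 genes, without a filter on dim probe sets. Groups were taken from the sample titles.

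The test was limma (version 3.58.1, run in R 4.3.3), with lmFit and eBayes on all 15 arrays, a mean for each group, no covariates and two-sided p-values. These were adjusted by Benjamini-Hochberg over all genes. Precision is limited by 5 arrays per group. The fit was also run on simulated data with independent errors of the same spread in every group. That run therefore does not cover the wider spread of the DED arrays. Every member could be named, and from each other list up to 3 rises and 3 falls per comparison among genes past the test. The members, lists and comparisons were chosen with earlier results of these data known, and are not independent of them. Alternatives were other scalings, filters on dim genes, probe sets taken singly, an intensity trend, weights for arrays, fits on 2 groups at a time, a block for the replicate number, a 2-fold minimum and each array left out. Plots were made in Python 3.11.15 with matplotlib 3.10.9, and promoter windows are from RefSeq (GRCh38.p14), which held 41 of the 49 members.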

Additional observations from a re-analysis of the deposited data

Results flagged for a closer look

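In each group of 5 arrays the highest or lowest value of every member was set against the nearest of the others, and 7 of 147 member groups held a value that stood apart by Dixon's 95% criterion, where chance gives about 1 in 20. SMAD6 was at 5.64 in DED array 1, against 4.71 to 4.84 in the other DED arrays, and GDF10 at 6.67 in DED array 5, against 5.96 to 6.16. INHBB was at 7.98 in MA array 2, against 8.24 to 8.34 in the other MA arrays, SMAD5 at 12.71 in MA array 4, against 12.38 to 12.47, and FST at 9.98 in MA array 5, against 9.50 to 9.61. TGFBR1 was at 8.74 in MSC array 4, against 8.33 to 8.42 in the other MSC arrays, and BAMBI at 6.40 in MSC array 5, against 6.74 to 6.86.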

How the results depend on the processing

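Of 147 member results (49 members in 3 comparisons) 81 passed the test, and 70 of these passed under each setting other than the 2-fold minimum that tested them, which were 23 to 25 settings a result because the filters on dim genes left some members out. The other 11 lost the call under some of them, and 0 member results that had passed turned direction. Counts of members past the test over the arrays left out in turn were 20 to 24 in DED against MA, 27 to 31 in MA against MSC and 25 to 28 in DED against MSC. Leaving out dim genes by the negative controls kept the 24 members with a mean above 8.31 in any group. Of these, 19 passed in MA against MSC (10 fell). In DED against MSC 17 passed (9 rose), and in DED against MA 17 passed (12 rose, 5 fell), with fewer members tested. This rule keeps members that are high in only some groups, which favours differences. The share of all genes past the test under this filter was not set beside these counts, nor was it for the arrays left out in turn or the replicate block. The counts therefore do not show how robust the members are as a set. Over all 49 members, a 2-fold minimum beside the adjusted p left 11 past both in DED against MA (6 rose, 5 fell). It left 19 in MA against MSC (10 fell) and 15 in DED against MSC (7 rose). All genes past both numbered 1111, 1812 and 1881, and TGF-beta and activin target genes in DED against MA numbered 6. Same-numbered arrays of different groups did not deviate together (correlations from -0.11 to 0.09), so the numbers were not taken as pairs. With the replicate number as a block 23 members passed in DED against MA, 28 in MA against MSC and 27 in DED against MSC, with BMP7 (adjusted p = 0.077), SMAD9 (0.062) and BAMBI (0.056) lost and LTBP3 (0.031) gained in MA against MSC, and BMP7 (0.076) and SKI (0.052) lost and ACVR2B (0.048) gained in DED against MA. Signal over background limits the size of differences for the 25 members whose group means were all below 8.31.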
